A study of Mus musculus with 12 samples.

Results

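The 10 genes described here encode the core of mitotic cohesin and the proteins that load, hold and release it: Smc1a, Smc3, Rad21, Stag1, Stag2, Pds5a, Pds5b, Wapl, Cdca5 and Nipbl. They form a list of named genes, taken up because the RNA-binding protein RBMX has a known role in sister chromatid cohesion. All 10 were found among the 55401 gene identifiers of the count files, and all 10 were among the 17569 genes that passed the filter on low counts and were tested. RNA was sequenced from Neuro-2a cells, a mouse neuroblastoma line, in 3 groups of 4 libraries. Every group received a GFP plasmid (1 µg) together with 3 µg of plasmid for an artificial microRNA, and GFP-positive cells were sorted 48 hours later, so the controls carry the GFP plasmid and a microRNA plasmid too. The control group (miScramble) received a scramble microRNA, the Rbmx knockdown (miRbmx) a pool of 3 plasmids, and the Rbmxl1 knockdown (miRbmxl1) a pool of 2 plasmids. Rbmx lies on chromosome X (57383530 to 57393036, minus strand, GRCm38), and Rbmxl1 is a retrocopy of it on chromosome 8 (78505269 to 78508898, minus strand). The labels number the biological replicates 1 to 4 in each group and do not say what a number stands for. P-values therefore measure the spread between these samples of 1 cell line.

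Cohesin is a ring that encircles DNA. Smc1a and Smc3 are the paired ATPases, Rad21 is the kleisin that closes the ring and is cut by separase at anaphase, and Stag1 or Stag2 binds Rad21 as alternative partners. Nipbl loads the ring and drives loop extrusion, Wapl opens it together with a Pds5 protein, and Cdca5 (sororin) opposes Wapl from S phase until mitosis, which keeps sister chromatids together. In cells that do not divide, the same ring shapes chromatin loops and gene expression.

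The 250 bases before the RefSeq start were examined for 7 of the 10 genes, those with an entry in the RefSeq promoter table (GRCm38.p6). The windows of Pds5a and Pds5b are shown because these paralogues shifted in opposite directions between replicate numbers, as described further on, and that of Cdca5 because it is the member best known for expression that follows the cell cycle. Capitals mark TTTGAA (the cell cycle genes homology region, CHR) and CCAAT or its complement ATTGG. The windows lie at chr5:65698237-65698486 (minus strand, Pds5a), chr5:150673577-150673826 (plus strand, Pds5b) and chr19:6084847-6085096 (plus strand, Cdca5). In the GENCODE M21 models, transcription starts 37, 88 and 114 bases before the RefSeq start of Pds5a, Pds5b and Cdca5, inside these windows.
Pds5a: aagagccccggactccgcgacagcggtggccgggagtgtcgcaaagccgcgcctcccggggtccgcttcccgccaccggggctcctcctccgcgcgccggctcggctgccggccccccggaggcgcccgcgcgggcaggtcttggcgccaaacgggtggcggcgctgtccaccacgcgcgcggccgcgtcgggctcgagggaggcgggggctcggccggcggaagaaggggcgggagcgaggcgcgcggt
Pds5b: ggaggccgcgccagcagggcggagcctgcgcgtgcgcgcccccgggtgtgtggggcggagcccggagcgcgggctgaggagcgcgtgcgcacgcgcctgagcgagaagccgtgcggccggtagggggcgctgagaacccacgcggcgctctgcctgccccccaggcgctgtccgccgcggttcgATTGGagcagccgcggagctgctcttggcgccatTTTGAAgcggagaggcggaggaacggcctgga
Cdca5: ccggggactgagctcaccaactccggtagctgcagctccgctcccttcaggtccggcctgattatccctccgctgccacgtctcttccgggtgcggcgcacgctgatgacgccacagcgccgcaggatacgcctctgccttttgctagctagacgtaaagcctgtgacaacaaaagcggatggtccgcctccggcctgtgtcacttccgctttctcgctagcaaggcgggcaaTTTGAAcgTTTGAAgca
The Cdca5 window held TTTGAA at 17 and at 9 bases before the RefSeq start, and the Pds5b window held it at 32 bases and ATTGG at 66 bases before the start. The Pds5a window held neither. Searched on both strands, TTTGAA was in 2 of the 7 windows and in 16% of 32851 windows of the same length, and CCAAT in 4 of 7 and 33.8%. The E2F word TTTCCCGC was in 1 of 7 windows (Stag1, whose GENCODE model starts 45650 bases before the RefSeq start used) and in 0.895% of all windows, and the GC box GGGCGG in 6 of 7 and 32.7%. A match is a description of letters and not evidence of a bound site.

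The targeted genes followed the labels. Rbmx stood at 57.6, 67.8, 72.2 and 73.3 CPM (counts-per-million values on TMM-scaled library sizes) in scramble replicates 1 to 4 and at 22.2, 24.7, 31.0 and 32.6 CPM in the Rbmx knockdown, a log2 fold change of −1.30 ± 0.08 (SE). Rbmxl1 stood at 31.3, 36.7, 34.2 and 34.2 CPM in scramble and at 16.7, 12.9, 14.7 and 12.3 CPM in its own knockdown, a log2 fold change of −1.27 ± 0.09. Of the 50-base words of Rbmxl1, 79.0% also occur in other annotated genes, so its counts are uncertain, against 0.981% for Rbmx. Neither pair of groups overlapped. In the Rbmxl1 knockdown, Rbmx stood above scramble in 4 of 4 same-numbered pairs by 0.36 ± 0.07 on the log2 scale (edgeR, adjusted p = 0.017). That call was lost without the replicate block (adjusted p = 0.444), and without any 1 of the 4 scramble libraries or Rbmxl1 knockdown replicate 1 (adjusted p from 0.053 to 0.068). It was also lost without replicate number 1 or 4 (0.077 and 0.056) and within replicates 1 and 2 (0.066). Each library held between 43.1 and 52.2 M reads assigned to genes. Of 10 neuroblastoma or sympathetic markers, 8 stood above 5 CPM in every library, while Nefl and Nefm were under 1 CPM. Of 10 markers of blood, fibroblast, endothelial, epithelial and glial cells, 7 were under 1 CPM in every library and 3 of those were at 0. Their summed level was 7.82 to 8.80 CPM in scramble, 9.16 to 9.63 CPM in the Rbmx knockdown and 8.38 to 10.01 CPM in the Rbmxl1 knockdown, and its part in any result here was not tested.

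The cohesin genes did not change detectably in either knockdown. With the replicate number as a block, edgeR's quasi-likelihood test called 0 of the 10 in the Rbmx knockdown at a Benjamini-Hochberg adjusted p under 0.05, where 8.35% of all tested genes were called. It called 0 of 10 in the Rbmxl1 knockdown, where 4.46% of all genes were called, and 0 of 10 between the knockdowns, where 0.0114% were called. At an unadjusted p under 0.05 the counts were 0, 1 (Nipbl) and 0 with the block (24.9%, 19.8% and 5.70% of all genes), 0, 0 and 0 without it (10.9%, 8.46% and 1.55%), and 0, 1 and 0 in DESeq2 (23.5%, 18.6% and 5.05%). The smallest adjusted p was 0.398 for the Rbmx knockdown, 0.174 for the Rbmxl1 knockdown and 0.903 between them. No member separated the 4 libraries of a knockdown from the 4 scramble libraries without overlap, against 8.07% of all genes for Rbmx and 5.67% for Rbmxl1, and none separated the knockdowns from each other (1.12%). Because bulk RNA was measured, fewer cells making a transcript and less transcript per cell cannot be told apart.

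The 95% intervals given here come from the fit with the replicate block. In the Rbmx knockdown the 10 log2 fold changes ran from −0.08 to 0.04, and their 95% intervals together ran from −0.20 to 0.16, which is 12.7% lower to 12% higher. In the Rbmxl1 knockdown they ran from −0.14 to 0.04, with intervals from −0.25 to 0.16, which is 16.1% lower to 12% higher. Standard errors were 0.05 to 0.07 on the log2 scale for all 10 genes, which had 1377 to 22564 reads each per library. The median size of the difference, without its sign, was 0.0356 (log2) for the members and 0.152 for all genes in the Rbmx knockdown, and 0.0412 and 0.132 in the Rbmxl1 knockdown. Low-count genes scatter more, so the 6001 genes with mean levels in the members' range (32.8 to 450.6 CPM) are the closer comparison. For those, the median size was 0.0950 and 0.0834, with 14.0% and 7.48% called and a median SE of 0.06 in both contrasts.

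**Figure D1:**
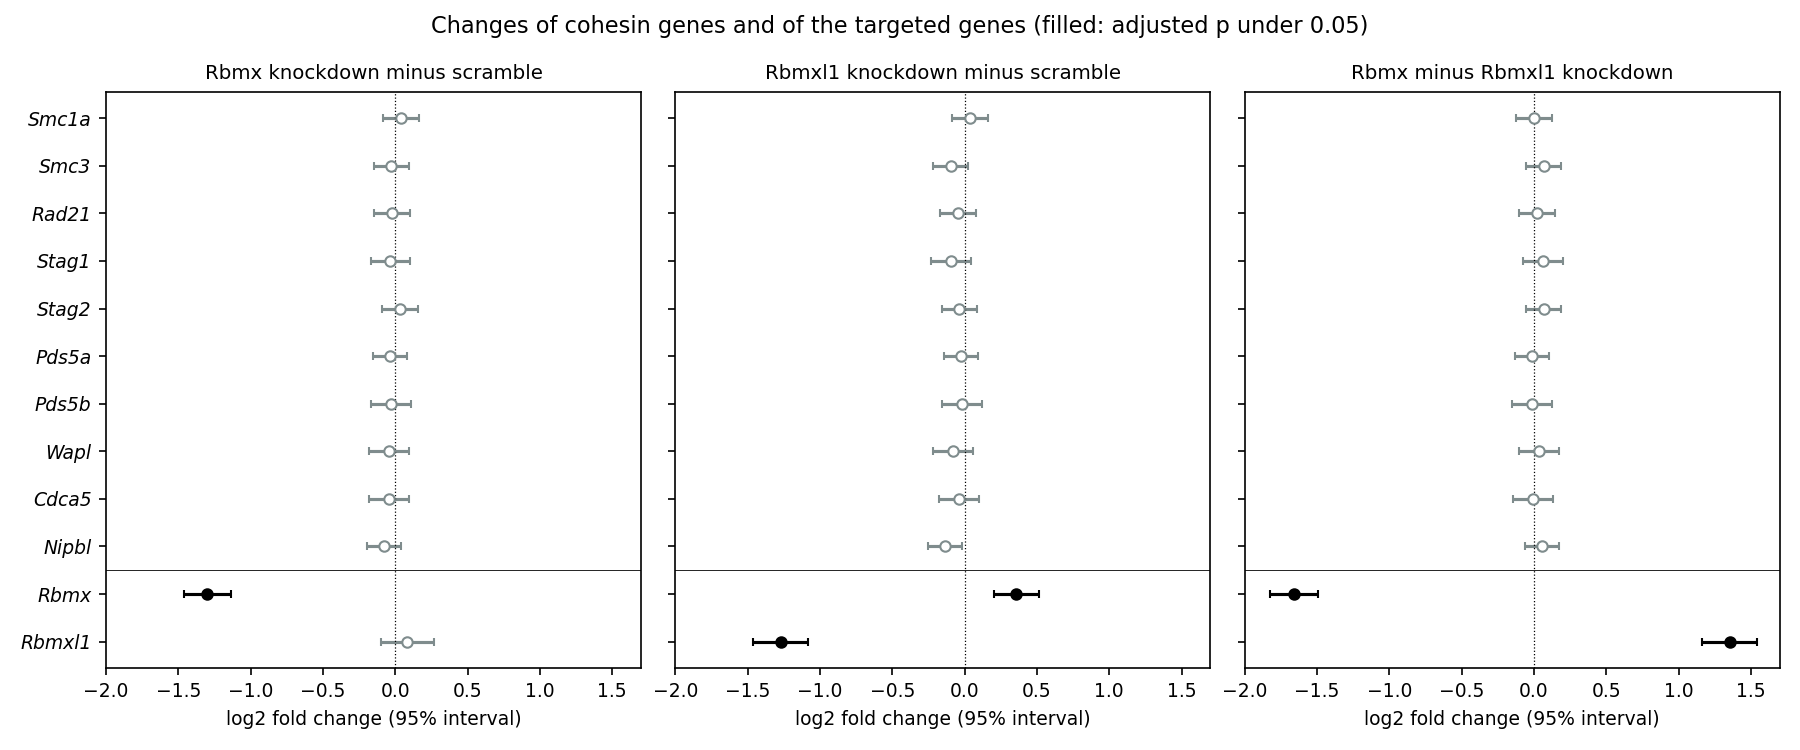
Log2 fold change with its 95% interval (x axis) for the 10 cohesin genes and, under the line, for Rbmx and Rbmxl1, in the Rbmx knockdown against scramble (left), the Rbmxl1 knockdown against scramble (middle) and one knockdown against the other (right). Filled points have an adjusted p under 0.05. The cohesin genes lie between −0.14 and 0.07 in all 3 panels, while the targeted genes lie at −1.30 and −1.27 in their own knockdowns.

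The ATPases of the ring did not differ from scramble beyond the spread of the replicates. Smc1a (chromosome X, 152016428 to 152062694, plus strand) stood at 182.9, 201.7, 192.6 and 189.5 CPM in scramble, at 192.6, 192.7, 196.0 and 206.2 CPM in the Rbmx knockdown and at 211.0, 198.5, 178.7 and 199.8 CPM in the Rbmxl1 knockdown. The 3 groups overlapped, and the fitted differences were 0.04 ± 0.06 in both knockdowns. Smc3 (chromosome 19, 53600398 to 53645833, plus strand) stood at 112.6, 123.6, 109.2 and 114.0 CPM in scramble, at 112.0, 108.8, 111.1 and 119.0 CPM in the Rbmx knockdown and at 113.1, 103.5, 102.2 and 111.5 CPM in the Rbmxl1 knockdown. Its log2 difference was −0.03 ± 0.06 for Rbmx and −0.10 ± 0.06 for Rbmxl1 (adjusted p = 0.813 and 0.385, edgeR), and it was below scramble in 3 of 4 Rbmxl1 pairs. Each SMC protein occurs once in a ring, so the ratio of their RNA was compared within libraries. Protein was not measured. Ratios per length, here and below, use the merged length of all annotated exons of a gene. The Smc1a to Smc3 ratio per length was 1.60 in scramble (1.56 to 1.69), 1.68 in the Rbmx knockdown (1.651 to 1.702) and 1.76 in the Rbmxl1 knockdown (1.68 to 1.84). The difference in the Rbmxl1 knockdown was 0.13 on the log2 scale, with 0.22 in replicates 1 and 2 and 0.05 in replicates 3 and 4. The ratio was higher in 3 of 4 pairs (two-sided exact permutation p = 0.0571, adjusted over 10 ratio tests p = 0.571). With 4 libraries against 4, the smallest p this test can give is 0.0286, so 1 ratio alone cannot pass after adjustment over 10 tests, and the tests do not show that the ratios were alike.

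Rad21 (chromosome 15, 51962240 to 51991747, minus strand), the kleisin, was the member with the highest level per length. It stood at 488.8, 525.0, 398.5 and 422.2 CPM in scramble, at 477.6, 472.9, 434.5 and 415.3 CPM in the Rbmx knockdown and at 480.9, 452.8, 400.2 and 439.4 CPM in the Rbmxl1 knockdown. In each group, replicates 1 and 2 were higher than replicates 3 and 4, and the groups overlapped. The fitted differences were −0.02 ± 0.06 and −0.04 ± 0.06.

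Stag1 and Stag2, the alternative partners of the kleisin, were not called in either knockdown. Stag1 (chromosome 9, 100597798 to 100959375, plus strand) stood at 75.1, 83.5, 77.6 and 81.1 CPM in scramble, at 77.5, 75.8, 82.3 and 74.3 CPM in the Rbmx knockdown and at 74.8, 67.9, 72.4 and 81.9 CPM in the Rbmxl1 knockdown, with differences of −0.03 ± 0.07 and −0.10 ± 0.07 (adjusted p = 0.795 and 0.448, edgeR). Stag2 (chromosome X, 42149317 to 42277185, plus strand) stood at 80.3, 85.3, 72.4 and 75.7 CPM in scramble, at 83.3, 87.0, 77.6 and 72.7 CPM in the Rbmx knockdown and at 87.8, 80.3, 67.6 and 71.2 CPM in the Rbmxl1 knockdown, with differences of 0.03 ± 0.06 and −0.04 ± 0.06. The groups overlapped for both genes. After a trend on GC content and length was removed, the Stag2 difference in the Rbmx knockdown was 0.16 (adjusted p = 0.124). The Stag2 to Stag1 ratio per length was 1.41 in scramble, 1.47 in the Rbmx knockdown and 1.47 in the Rbmxl1 knockdown. It was above scramble in 4 of 4 Rbmx pairs and in 2 of 4 Rbmxl1 pairs, and neither difference passed the exact permutation test (p = 0.429 and 0.571).

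Pds5a and Pds5b, paralogous scaffold proteins that bind Rad21 and recruit either Wapl or Cdca5, were not called either. Pds5a (chromosome 5, 65605721 to 65698273, minus strand) stood at 274.2, 288.6, 293.1 and 297.2 CPM in scramble, at 262.2, 261.6, 311.2 and 290.2 CPM in the Rbmx knockdown and at 280.5, 277.2, 282.5 and 293.9 CPM in the Rbmxl1 knockdown. Pds5b (chromosome 5, 150673739 to 150810690, plus strand) stood at 156.2, 161.1, 142.4 and 155.4 CPM in scramble, at 153.9, 157.6, 149.9 and 141.0 CPM in the Rbmx knockdown and at 178.0, 153.5, 128.7 and 150.2 CPM in the Rbmxl1 knockdown. In each group Pds5a was higher, and Pds5b lower, in replicates 3 and 4 than in replicates 1 and 2, and the groups overlapped for both genes. The fitted differences were −0.04 ± 0.05 and −0.02 ± 0.05 for Pds5a, and −0.03 ± 0.07 and −0.02 ± 0.07 for Pds5b. Their ratio per length was 0.955, 0.949 and 0.951 in scramble, the Rbmx knockdown and the Rbmxl1 knockdown.

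Wapl and Cdca5, which release and protect the ring, were likewise not called. Wapl (chromosome 14, 34673928 to 34747983, plus strand) stood at 114.8, 128.1, 104.7 and 112.2 CPM in scramble, at 109.8, 115.8, 113.5 and 106.0 CPM in the Rbmx knockdown and at 121.9, 106.0, 99.2 and 107.7 CPM in the Rbmxl1 knockdown, with differences of −0.04 ± 0.06 and −0.08 ± 0.06 (adjusted p = 0.726 and 0.535, edgeR). Cdca5 (chromosome 19, 6084983 to 6091777, plus strand) stood at 35.7, 33.5, 32.8 and 31.6 CPM in scramble, at 38.0, 32.2, 29.4 and 30.2 CPM in the Rbmx knockdown and at 38.2, 29.4, 31.97 and 30.9 CPM in the Rbmxl1 knockdown, with differences of −0.05 ± 0.07 and −0.04 ± 0.07. Replicate 1 was the highest Cdca5 library in each of the 3 groups, and the groups overlapped. The Cdca5 to Wapl ratio per length was 0.905, 0.903 and 0.932 in the 3 groups. It was above scramble in 3 of 4 Rbmx pairs and in 4 of 4 Rbmxl1 pairs, by 0.04 on the log2 scale in the latter. Neither difference passed the exact permutation test (p = 0.971 and 0.571), which does not use the pairs and so does not show that the ratios were alike.

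Nipbl, the loader, came nearest to the threshold. It stood at 301.5, 308.1, 252.7 and 262.9 CPM in scramble, at 269.9, 283.6, 267.4 and 241.5 CPM in the Rbmx knockdown and at 275.1, 282.2, 234.2 and 232.7 CPM in the Rbmxl1 knockdown. The groups overlapped when all libraries were pooled, but each Rbmxl1 knockdown library was below the scramble library of the same number. The difference was −0.14 ± 0.05 in the Rbmxl1 knockdown (95% interval −0.25 to −0.02), with an unadjusted p of 0.0244 and an adjusted p of 0.174 in edgeR. Replicates 1 and 2 alone gave −0.12, and replicates 3 and 4 alone gave −0.15. DESeq2 gave an adjusted p of 0.0986, the fit without the block 0.768, and over the 23 alternatives the adjusted p ran from 0.0986 to 0.768. With the trend on GC content and length removed the difference was −0.05. In the Rbmx knockdown it was −0.08 ± 0.05 (adjusted p = 0.398), and the difference between the knockdowns was 0.06 ± 0.05 (adjusted p = 0.916). Relative to its antagonist, the Nipbl to Wapl ratio per length was 1.72, 1.68 and 1.65 in the 3 groups, and neither difference passed the exact permutation test (p = 0.486 and 0.457).

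**Figure D2:**
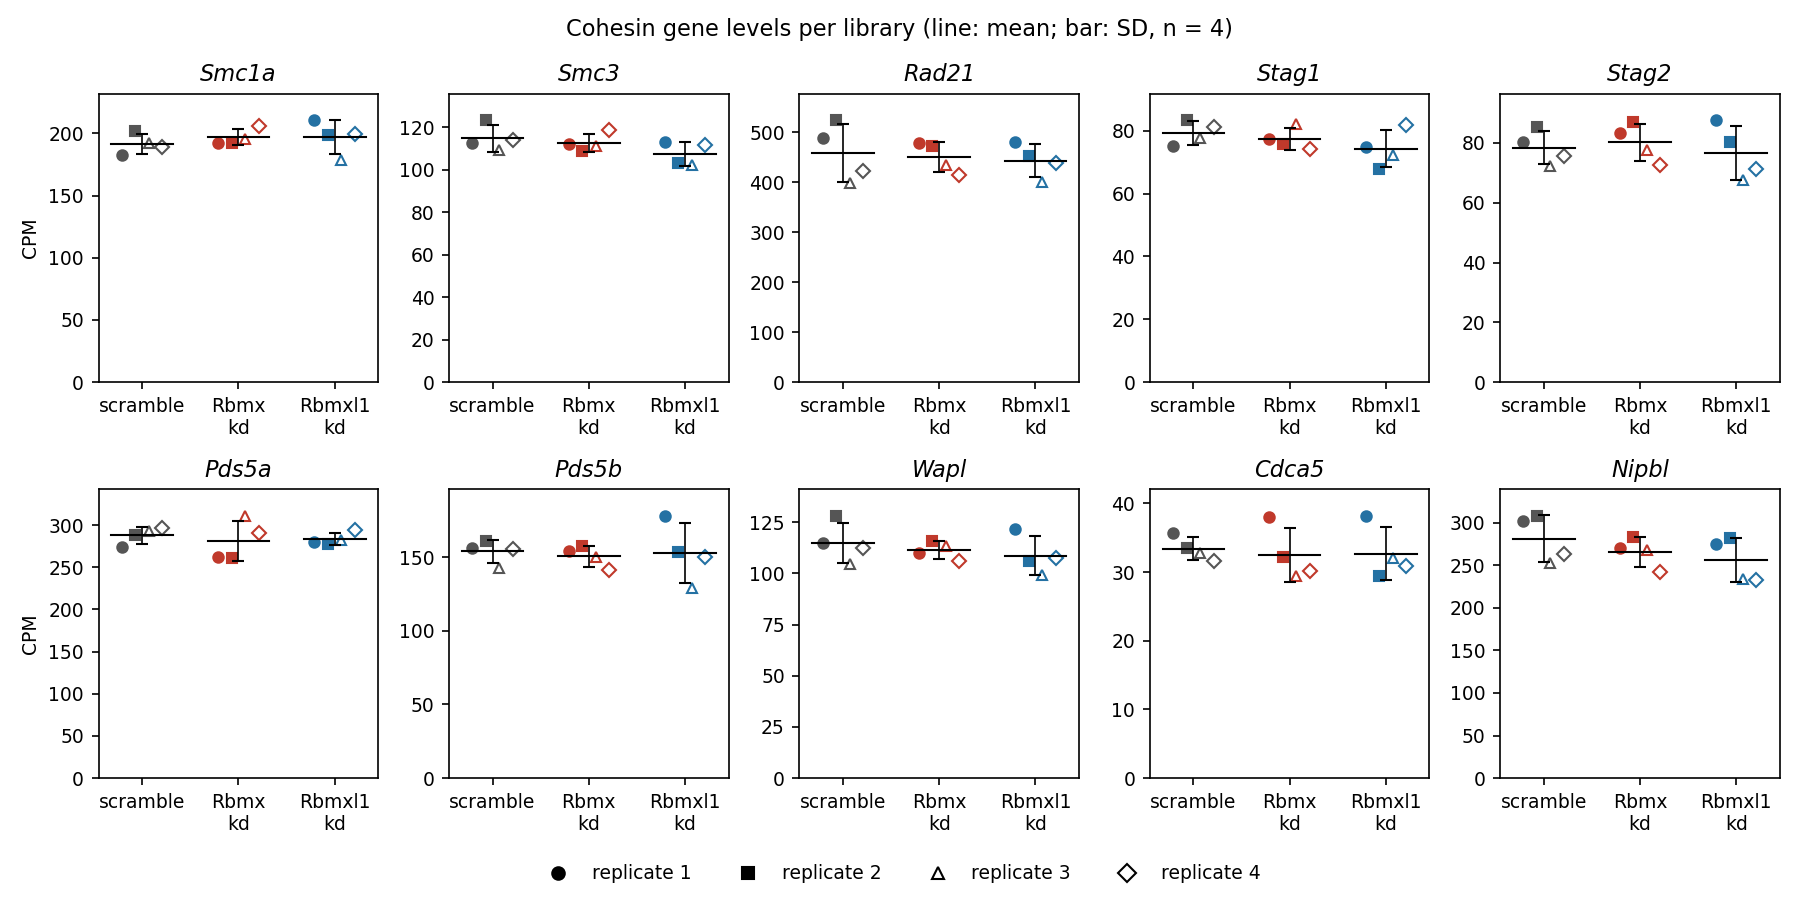
CPM in each of the 12 libraries (y axis, from 0) for the 10 cohesin genes, by group (x axis; kd, knockdown). Filled symbols are replicates 1 and 2, open symbols replicates 3 and 4, lines are means and bars SD (n = 4). The 3 groups overlap for every gene, and for Rad21, Nipbl, Stag2 and Pds5b the open symbols lie under the filled ones in each group.

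As a list, 2 of the 10 genes had a positive and 8 a negative difference in the Rbmx knockdown, with a median of −0.03, and 1 and 9 in the Rbmxl1 knockdown, with a median of −0.04. The same medians over all genes were −0.00 and 0.01, with 50.0% and 51.4% of genes positive. The sign of the median moved with the processing: with the GC and length trend removed the members' medians were 0.05 and 0.00, and within replicates 3 and 4 the Rbmx median was 0.01. The 2 comparisons share the scramble libraries, so their signs are not independent. Between the knockdowns, 6 were positive and 4 negative with a median of 0.03. Over the 23 alternatives, 0 of 690 values of the members were called. These fits share libraries, and several called almost no gene. Without the block 0.00569% of all genes were called in each knockdown, and within replicates 1 and 2 the shares were 0.023% (Rbmx) and 0.172% (Rbmxl1). In such fits 0 calls among 10 genes says nothing of the members. Even at the 8.35% and 4.46% of the main fit, 0 of 10 does not set the members apart.

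Levels per length gave the order of the members in scramble libraries. Divided by the merged exon length, Rad21 stood at 108 ± 13.8 RPKM (SD, n = 4), Smc1a at 33.2 ± 1.36, Nipbl at 29.9 ± 2.93 and Smc3 at 20.7 ± 1.12. Wapl followed at 17.4 ± 1.48, Cdca5 at 15.7 ± 0.80, Pds5b at 15.6 ± 0.81 and Pds5a at 14.9 ± 0.52, and the Stag genes were lowest, with Stag2 at 9.48 ± 0.68 and Stag1 at 6.73 ± 0.32. Smc1a and Nipbl overlapped in their scramble libraries, as did each neighbour in the series Wapl, Cdca5, Pds5b and Pds5a, so these neighbours overlap in level across libraries. Within single libraries, Smc1a was above Nipbl in 11 of 12, Wapl above Cdca5 in 10 of 12, Cdca5 above Pds5b in 4 of 12 and Pds5b above Pds5a in 8 of 12. Rad21 was 16.1-fold above Stag1, and they were the highest and the lowest member in 12 of 12 libraries. All 10 were well expressed: 61.3% of tested genes lay below Stag1, 78.5% below Pds5a and 98.3% below Rad21.

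Part of that order rests on which length is used. With the longest annotated transcript, Pds5a moved from the eighth to the third place (32.3 RPKM), because its merged exons span 19335 bases and its longest transcript 8934. Stag1 (12.8 RPKM) and Stag2 (12.7 RPKM) then overlapped, and the range from Rad21 (115.9 RPKM) to the lowest member was 9.12-fold. Rad21 and Smc1a stayed first and second under both lengths.

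**Figure D3:**
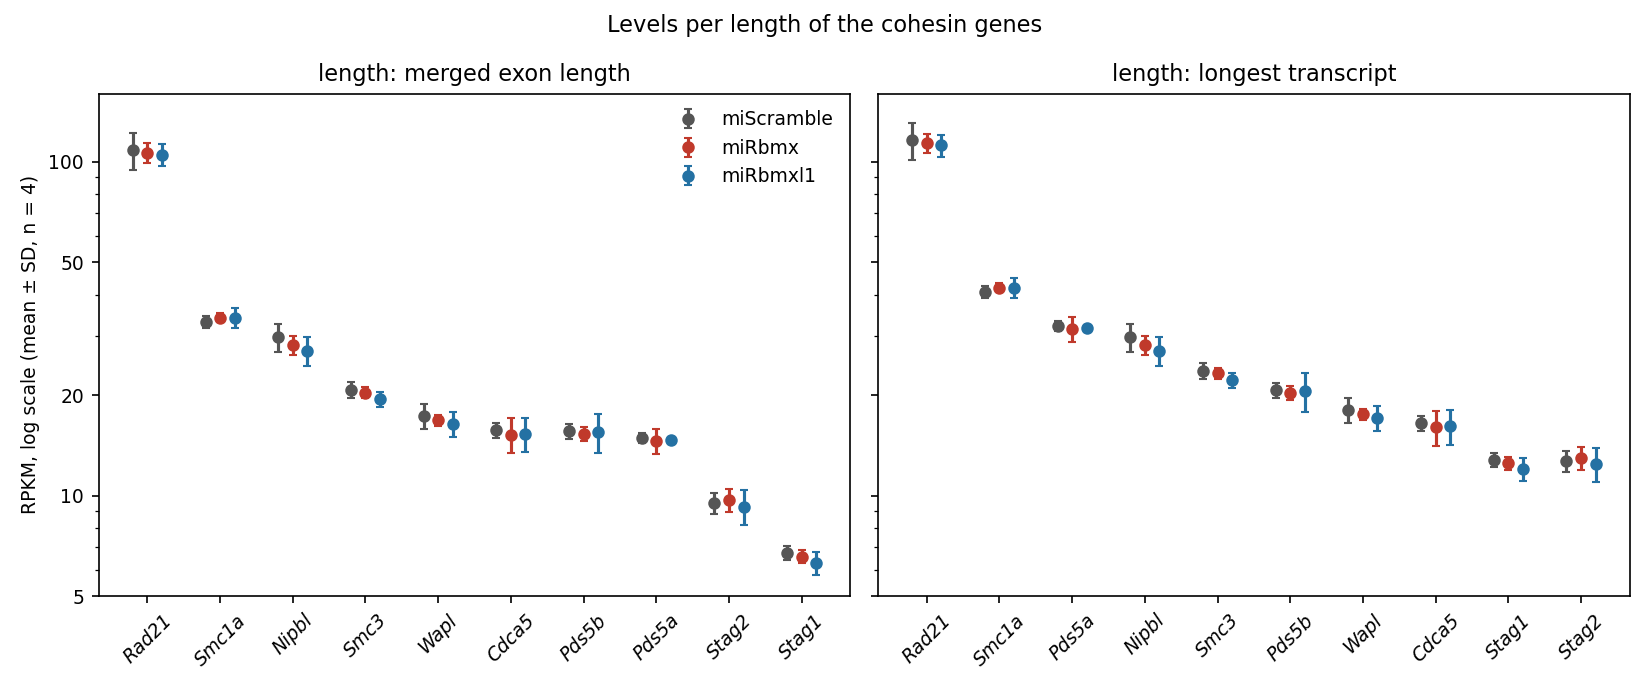
Levels per length (RPKM, log axis; mean ± SD, n = 4) of the 10 cohesin genes in the 3 groups, ordered by the scramble mean, with the merged exon length (left) and the longest annotated transcript (right). Rad21 is at 108 or 115.9 RPKM in scramble, and the SD bars of the 3 groups overlap for each gene.

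Some members differed between replicate numbers within every group. The values of all genes set replicates 1 and 2 of each group apart from replicates 3 and 4, a split found in the data that no label describes, so the separation is given without a test. Rad21, Nipbl and Stag2 were each lower in replicates 3 and 4 by 0.21 on the log2 scale (mean of the 3 groups), and Pds5b by 0.15, with no overlap in any group. Pds5a was higher by 0.11, with no overlap in any group. The other 5 overlapped in at least 1 group. Among all tested genes, 15.9% were lower and 15.3% higher without overlap in each of the 3 groups, 31.2% in all, against 5 of the 10 members. A fit with an interaction of knockdown and this split called 0 of 10 members and 0% of all genes in either knockdown in edgeR. At an unadjusted p under 0.05 it gave 0 members (11.1% and 8.36% of all genes). As it called no gene at all, it says nothing of whether the members' knockdown differences were alike in both sets.

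**Figure D4:**
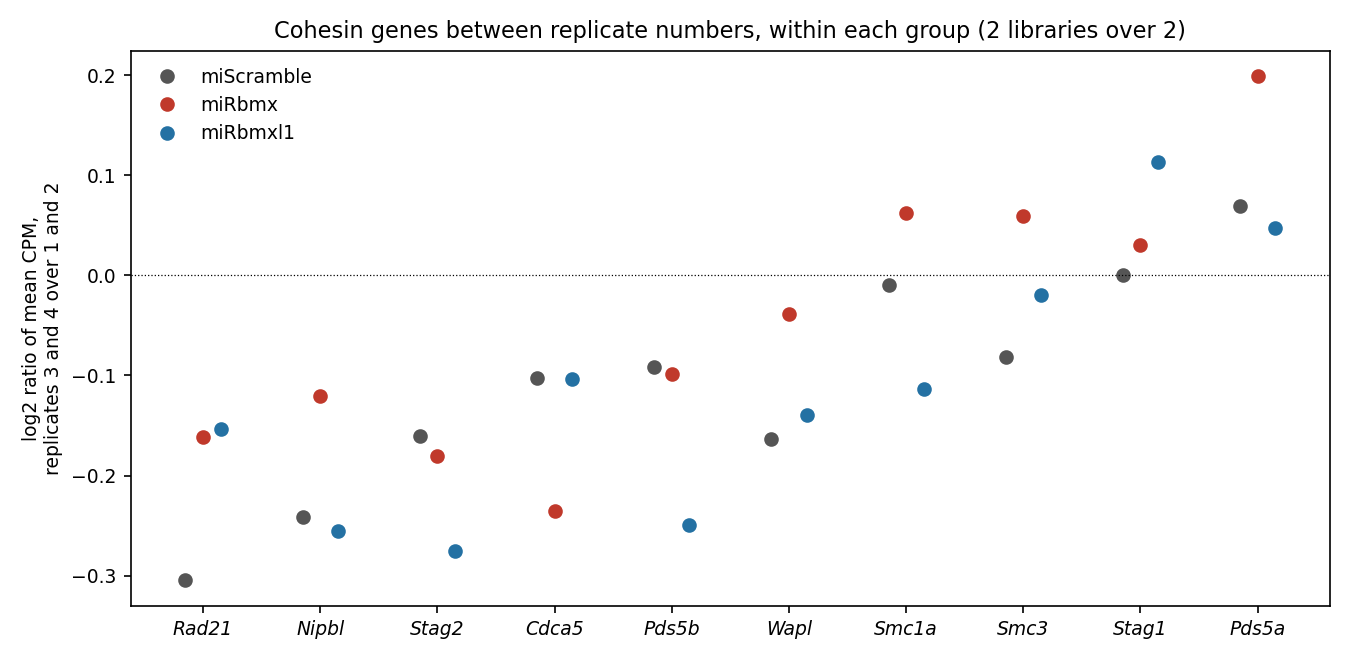
Log2 ratio of mean CPM in replicates 3 and 4 over replicates 1 and 2 (y axis), within each group, for the 10 cohesin genes ordered by the mean of the 3 groups. Rad21, Nipbl, Stag2, Cdca5, Pds5b and Wapl are negative in all 3 groups, and Pds5a and Stag1 are positive in all 3, with Stag1 close to 0 in scramble.

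The gene models of most members are long and have many exons. Their median span was 83.3 kb against 14.2 kb for all tested genes, with a median of 31 exons against 6 and an exon GC content of 42.4% against 49.8%. The longest internal exon was 1608 bases in Nipbl, longer than in all but 2.93% of tested genes with an internal exon, and 1053 bases in Wapl, longer than in all but 5.95%. Cdca5 is the exception, with a span of 6.80 kb, 6 exons and a GC content of 51.5%. Apart from Nipbl and Wapl, the members had longest internal exons of 206 to 474 bases. Nipbl lies at 8290617 to 8444463 on chromosome 15 (minus strand) and Wapl at 34673928 to 34747983 on chromosome 14 (plus strand) of GRCm38. Counts sum all exons of a gene, so a change in exon use at an equal total was not measured. Pds5a and Stag2 overlap 2 and 1 genes on the opposite strand over 1.93% and 0.338% of their exon bases, and Smc3 shares 1.56% of its 50-base words with 3 other annotated genes.

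Among other genes of sister chromatid cohesion, Plk1 and Pttg1 rose and Mau2 fell in the Rbmx knockdown. Of the 20 listed regulators, these 3 were called in the Rbmx knockdown (2 higher, 1 lower; 4.16% and 4.19% of all genes), with a median log2 fold change of −0.004 over the list. Plk1, the mitotic kinase that strips cohesin from chromosome arms, stood at 46.5, 51.8, 34.5 and 37.7 CPM in scramble and at 55.1, 57.8, 59.9 and 50.0 CPM in the Rbmx knockdown. It rose by 0.39 ± 0.11 on the log2 scale (adjusted p = 0.039, edgeR), higher in 4 of 4 pairs although the groups overlapped, and the values were 0.21 in replicates 1 and 2 and 0.59 in replicates 3 and 4. Pttg1 (securin, the inhibitor of separase) stood at 11.6, 12.8, 9.1 and 7.7 CPM in scramble and at 13.5, 13.8, 18.3 and 14.0 CPM in the knockdown, without overlap. It rose by 0.52 ± 0.16 (adjusted p = 0.049, edgeR), and the values were 0.17 in replicates 1 and 2 and 0.92 in replicates 3 and 4. Mau2, the partner of Nipbl in the loader, stood at 97.7, 84.2, 109.8 and 94.2 CPM in scramble and at 73.5, 76.0, 84.7 and 87.1 CPM in the knockdown. It fell by 0.26 ± 0.07 (log2 −0.26; adjusted p = 0.033, edgeR), lower in 4 of 4 pairs although the groups overlapped, while Nipbl itself was not called. None of the 3 was called without the replicate block (adjusted p = 0.325, 0.379 and 0.374). Within replicates 1 and 2 none of the 3 was called. With the GC and length trend removed, Plk1 was not called (adjusted p = 0.081, edgeR). Single libraries decided these calls as well. For Plk1 they were scramble replicates 1, 3 and 4, Rbmx knockdown replicates 2, 3 and 4 and Rbmxl1 knockdown replicate 4 (log2 0.25 to 0.41 and adjusted p 0.056 to 0.163 without one). For Pttg1 they were scramble replicates 3 and 4, each of the 4 Rbmx knockdown libraries and Rbmxl1 knockdown replicate 4 (0.33 to 0.58, 0.067 to 0.195). For Mau2 they were scramble replicates 1, 3 and 4 and Rbmx knockdown replicates 1, 2 and 3 (−0.29 to −0.20, 0.057 to 0.147). Leaving out replicate number 1, 3 or 4 from every group also ended each of the 3 calls, with adjusted p of 0.056, 0.157 and 0.128 for Plk1, 0.051, 0.141 and 0.214 for Pttg1, and 0.114, 0.172 and 0.066 for Mau2. Plk1 shares 6.84% of its 50-base words with 1 other annotated gene, and Mau2 1.77% with 128 others in all. Between the knockdowns 0 of the 20 were called (smallest adjusted p = 0.770, edgeR), where 0.0114% of all genes were called. The changes of Plk1, Pttg1 and Mau2 were thus not shown to be particular to the Rbmx knockdown.

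In the Rbmxl1 knockdown 1 of the 20 was called, and it was lower (2.20% of all genes), with a list median of −0.02. Plk1, Pttg1 and Mau2 were not called in this knockdown in the main fit. Over the 23 alternatives their log2 differences ran from −0.06 to 0.42, −0.08 to 0.83 and −0.26 to −0.10, with calls in 2, 2 and 1 of them. Esco1, an acetyltransferase that modifies Smc3, stood at 35.1, 36.5, 30.6 and 29.7 CPM in scramble and at 29.4, 28.6, 25.2 and 23.8 CPM in the Rbmxl1 knockdown, without overlap. It fell by 0.30 ± 0.06 on the log2 scale (log2 −0.30; adjusted p = 0.016, edgeR), lower in 4 of 4 pairs. In the Rbmx knockdown Esco1 was not called, and the difference between the knockdowns did not pass the test (adjusted p = 0.770). The call was lost without the replicate block (adjusted p = 0.407), with the GC and length trend removed (0.064), and without scramble replicate 1, 2 or 3 or Rbmxl1 knockdown replicate 4 (log2 −0.32 to −0.29, adjusted p 0.052 to 0.061). It was also lost without replicate number 3 or 4 (0.068 and 0.091) and within replicates 1 and 2 (0.206). Esco1 shares 10.1% of its 50-base words with another annotated gene, so its counts are less certain than those of the members.

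Meiotic cohesin was represented by Rec8, a meiotic kleisin. It stood at 93.2, 78.8, 45.7 and 41.3 CPM in scramble, at 87.0, 67.0, 29.6 and 31.6 CPM in the Rbmx knockdown and at 76.6, 76.8, 34.7 and 36.0 CPM in the Rbmxl1 knockdown, so replicates 3 and 4 were lower in every group. Within that pattern it fell by 0.33 ± 0.08 on the log2 scale in the Rbmx knockdown (log2 −0.33; adjusted p = 0.020, edgeR), lower in 4 of 4 pairs, and the values were −0.16 in replicates 1 and 2 and −0.52 in replicates 3 and 4. Without the replicate block the adjusted p was 0.862, and the call was also lost without scramble replicate 3 or 4 or Rbmx knockdown replicate 2, 3 or 4 (log2 −0.33 to −0.26, adjusted p 0.056 to 0.097). It was also lost without replicate number 3 or 4 (0.152 and 0.102) and within replicates 1 and 2 (0.437). In the Rbmxl1 knockdown Rec8 was at −0.23 on the log2 scale, lower in 4 of 4 pairs and not called (adjusted p = 0.109, edgeR), and the difference between the knockdowns was −0.10 (adjusted p = 0.897). The kleisin partner Stag3 had at most 5 reads in a library, and Smc1b and Rad21l had 0 in each library.

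Among 14 subunits of condensin and of the SMC5/6 complex, the other ring-shaped SMC complexes, 1 was called in the Rbmx knockdown and 0 in the Rbmxl1 knockdown, where 8.35% and 4.46% of all genes were called in edgeR. At an unadjusted p under 0.05 the counts were 7 and 5 (24.9% and 19.8% of all genes), and DESeq2 called 2 and 0 (11.5% and 7.28%), with list medians of −0.03 and −0.05. Removing the GC and length trend moved those medians to 0.00 and −0.01. Ncapg2, a subunit of condensin II, stood at 127.2, 126.2, 131.9 and 131.7 CPM in scramble and at 109.1, 104.6, 119.3 and 115.0 CPM in the Rbmx knockdown, without overlap. It fell by 0.21 ± 0.05 on the log2 scale (log2 −0.21; adjusted p = 0.023, edgeR), lower in 4 of 4 pairs. The call was lost without the replicate block (adjusted p = 0.284), with the GC and length trend removed (−0.14, 0.080), and within either replicate set (0.178 and 0.087). It was also lost without any 1 replicate number (0.065 to 0.102), and without any 1 scramble library or Rbmx knockdown replicate 1, 2 or 3 (log2 −0.23 to −0.19, adjusted p 0.051 to 0.099). In the Rbmxl1 knockdown Ncapg2 was not called, and its log2 difference ran from −0.15 to −0.05 over the 23 alternatives. Between the knockdowns 0 of the 14 were called (smallest adjusted p = 0.882, edgeR), so the fall was not shown to be particular to the Rbmx knockdown.

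**Figure D5:**
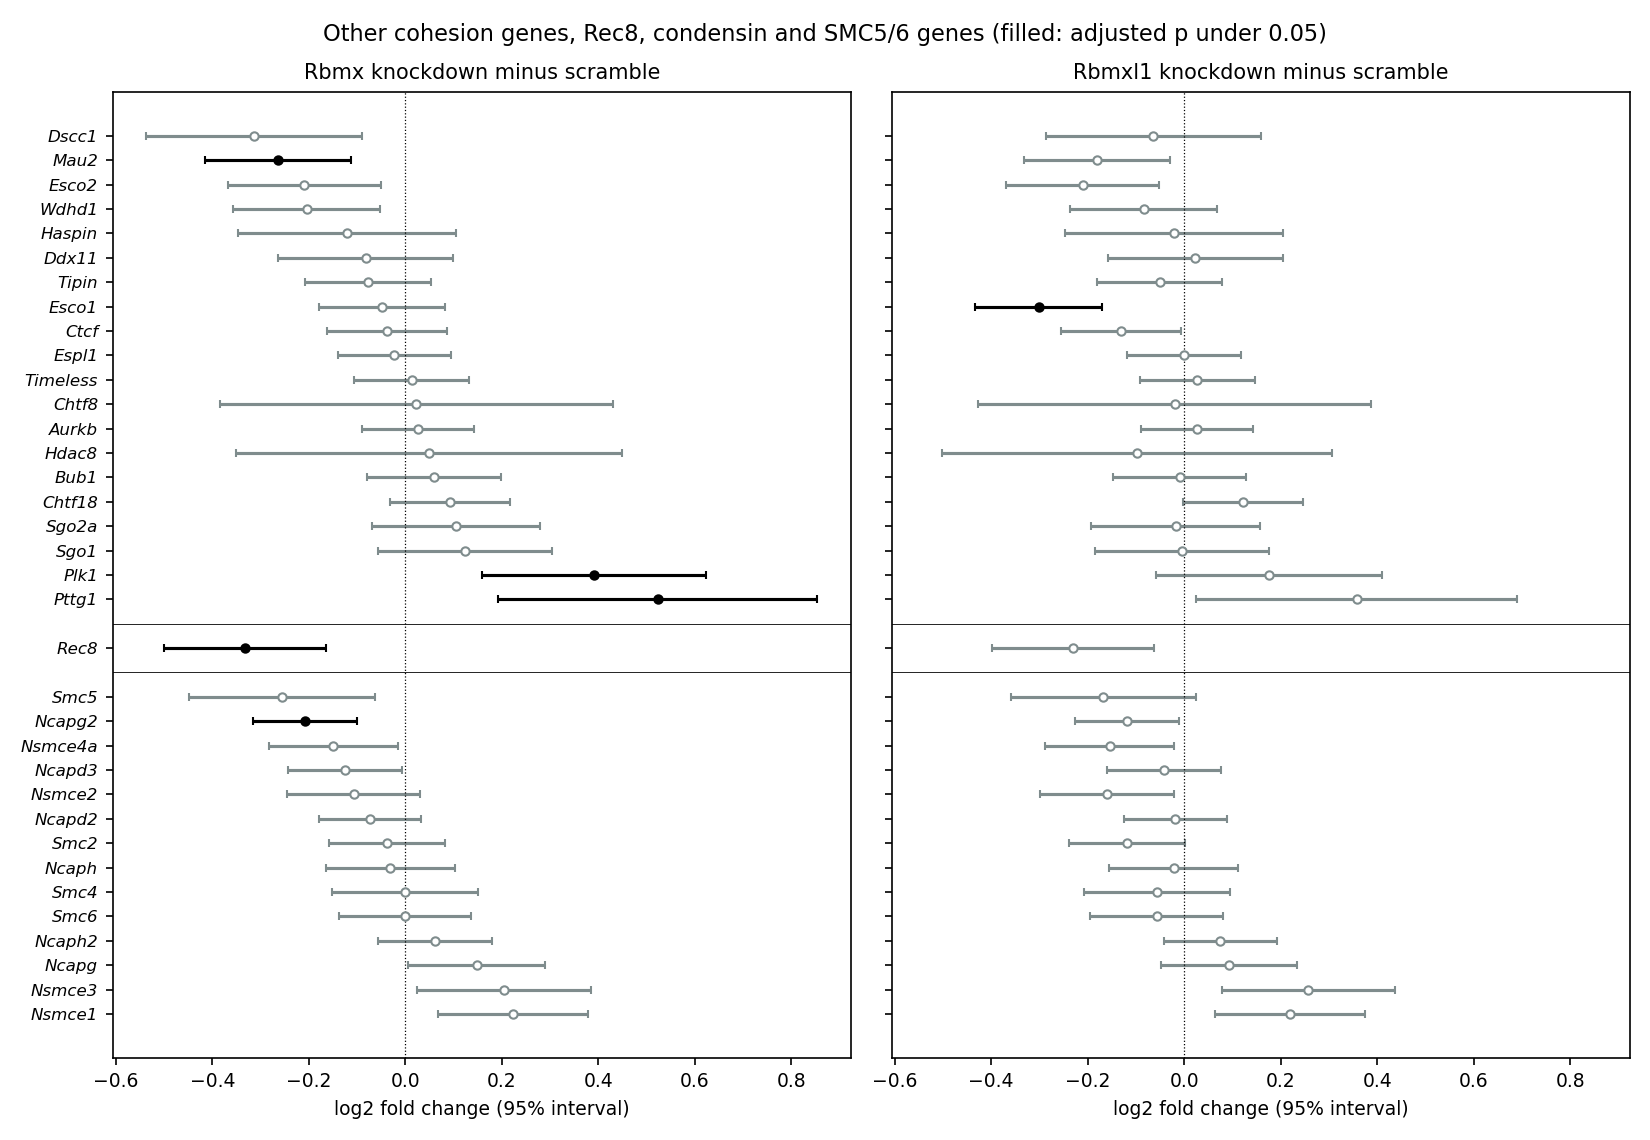
Log2 fold change with its 95% interval (x axis) for 20 other cohesion genes (top), Rec8 (middle) and 14 condensin and SMC5/6 genes (bottom), each block ordered by the Rbmx knockdown; left, Rbmx knockdown, and right, Rbmxl1 knockdown, both against scramble. Filled points have an adjusted p under 0.05 with the replicate block: Mau2, Plk1, Pttg1, Rec8 and Ncapg2 on the left and Esco1 on the right.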

How the data were processed

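The authors deposited 1 table of raw read counts per library (12 libraries), whole numbers per Ensembl gene without normalization. Per the submitters' processing notes, STAR 2.5.3a, HTSeq 0.6.1p1, cutadapt, DESeq2 1.16.1, R 3.3.2 and the build mm10 were used; the annotation release and the strand setting are not given in the sources used here, so counts of overlapping genes are uncertain. Rows that name no gene held 52.3% to 57.4% of each file and were left out. Positions and lengths come from GENCODE M21 (GRCm38), which held 55141 of the 55401 identifiers.

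The tests were run on these counts in R 4.3.3 with edgeR 4.0.16: filterByExpr by group (minimum count 10, minimum total 15), TMM scaling, 1 quasi-likelihood fit over 12 libraries with the replicate number as a block, and Benjamini-Hochberg adjustment over 17569 genes. SE is the log2 fold change over the root of F, and RPKM are TMM-scaled CPM per kb. Log2 ratios within a library were compared by a two-sided exact permutation test of 4 against 4 libraries, without the replicate block (scipy 1.17.1). The check of the pairing correlated deviations from the group means across genes (log2 CPM, prior count 2). Libraries of the same number correlated at r = 0.20 to 0.52 over 12 pairs, other numbers within 1 and 2 or within 3 and 4 at 0.10 to 0.43, and numbers across those sets at −0.57 to −0.13. The same-number range overlaps that of other numbers in the same set. The values thus set replicates 1 and 2 apart from 3 and 4 and do not single out libraries of the same number. The number itself is in the labels, which do not say that libraries of equal number belong together.

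The members, gene lists, blocked design and named genes (all members, the targeted genes, and called genes of the other lists) were chosen with earlier results of these data known. Alternatives covered the block, DESeq2 1.42.0 and its size factors, the filter, a GC and length trend, left-out libraries and replicate sets, and the transcript length.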

Additional observations from a re-analysis of the deposited data

How the results depend on the processing

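In all 3 contrasts, 0 of the 10 cohesin genes were called under each of the 23 alternatives. The smallest adjusted p was 0.0986 (Nipbl, Rbmxl1 knockdown, DESeq2). Some of these fits called almost no gene, among them those without the replicate block and most of those between the knockdowns (counts below). In such fits 0 of 10 does not test whether the finding is stable. Signs of the members' uncalled differences changed in some alternatives. The other sign was found for 27 of 230 values in the Rbmx knockdown, 20 of 230 in the Rbmxl1 knockdown and 43 of 230 between the knockdowns.

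The background against which the members are read depends much more on the processing. Of all genes, 1467 were called in the Rbmx knockdown, 783 in the Rbmxl1 knockdown and 2 between them. With no replicate block, 1 gene was called in each knockdown. The block assumes that libraries of equal number belong together, which no label says. Within replicates 1 and 2 the counts were 4, 30 and 4, and within replicates 3 and 4 they were 1818, 992 and 18. DESeq2 called 2024 in the Rbmx knockdown, 1279 in the Rbmxl1 knockdown and 10 between them. Without a filter on low counts 2085, 1243 and 86 were called, and with the GC and length trend removed 1206, 496 and 2. Leaving out 1 replicate number gave 146 (without replicate 3) to 954 in the Rbmx knockdown, 100 (without replicate 4) to 695 in the Rbmxl1 knockdown and 2 to 7 between them. Leaving out 1 library gave 281 (without scramble replicate 3) to 1904, 126 (without scramble replicate 3) to 1032, and 2 to 4. The cause of these differences was not tested. Rbmx and Rbmxl1 were called in their own knockdowns in 23 of 23 alternatives. The other calls against scramble given by name were lost in some alternatives, as given beside each.

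Exchanging labels only within same-numbered pairs allows 16 arrangements, too few for a ratio test to pass the threshold, so it says nothing of stability.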
